A study of Mus musculus with 18 samples.

Results

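The genes described here encode the proteins of the cytosolic ribosome, the particle that translates nuclear mRNAs. They were taken as the probe sets whose 1 annotated symbol has the form Rpl or Rps with a number, or Rplp0 to Rplp2. This gave 103 probe sets for 48 genes, of 45037 probe sets and 18193 genes with a probe set of 1 symbol on the array. A filter on low values kept 95 of the 103, for 45 genes, of 27773 probe sets kept in all. A further 110 probe sets name a ribosomal protein gene beside another symbol and were left out, so that 29 ribosomal protein symbols found on such probe sets alone, Rpl32 among them, have no value here.

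The samples were NIH-3T3 cells, an established mouse fibroblast line, in 6 treatments with 3 biological replicates each, and the 18 arrays were hybridised with newly transcribed RNA. Cells received interferon-γ with cycloheximide (IFNγ + CHX), interferon-α with cycloheximide (IFNα + CHX), cycloheximide alone (CHX), IFNγ, IFNα, or neither agent (mock). Interferon was given at 100 U/ml for 60 min. Cycloheximide, an inhibitor of translation elongation, or its solvent DMSO was present from 15 min earlier, so for 75 min in all at 50 µg/ml. All groups, mock included, also received 500 µM 4-thiouridine (4sU) in the last 30 min, and the labelled RNA was purified, so that each value is the amount of RNA made and still present within that labelling window, relative to all labelled RNA on the array. In such a bulk sample fewer producing cells and less RNA per cell cannot be told apart.

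Ribosomal protein genes are transcribed by RNA polymerase II at high rates in growing cells, and their products assemble with ribosomal RNA in the nucleolus into a large and a small subunit. Their mRNAs begin with a terminal oligopyrimidine (TOP) motif, a cytosine followed by a run of pyrimidines at the 5′ end, through which translation of the whole family follows nutrient and growth signals by way of the kinase mTOR. Because the proteins are needed in fixed proportions, the family is usually described as regulated together.

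The start sites of 8 members are shown for the 5 genes with the largest falls under CHX and the 3 that lay above 0, so that their first bases can be set side by side. Each line holds 20 bases before and 20 bases from the annotated start, 5′ to 3′ on the gene's strand, from RefSeq on GRCm38.p6. Capitals mark a run of at least 5 C or T bases that starts with C within 5 bases of the start.
Rpl12, chr2:32961692-32961731, plus strand: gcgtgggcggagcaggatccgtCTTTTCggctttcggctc
Rpl14, chr9:120571497-120571536, plus strand: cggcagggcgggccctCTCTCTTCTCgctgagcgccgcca
Rps25, chr9:44407694-44407733, plus strand: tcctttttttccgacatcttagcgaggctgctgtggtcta
Rps27, chr3:90213629-90213668, minus strand: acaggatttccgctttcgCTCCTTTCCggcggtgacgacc
Rpl13a, chr7:45128726-45128765, minus strand: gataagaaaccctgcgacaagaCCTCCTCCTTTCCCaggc
Rpl27a, chr7:109519175-109519214, plus strand: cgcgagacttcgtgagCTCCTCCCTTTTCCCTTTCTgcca
Rps6, chr4:86857348-86857387, minus strand: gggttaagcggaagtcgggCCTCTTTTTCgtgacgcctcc
Rpl39l, chr16:10170208-10170247, plus strand: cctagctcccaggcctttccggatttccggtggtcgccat
Rpl12, Rpl14, Rps27 and Rpl13a hold such a run, and so do Rpl27a and Rps6, which were not called. Rps25 and Rpl39l hold none at the annotated base.

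Of the 48 genes, 42 had a promoter window of 250 bases before and 50 bases after the start, and 20 of the 42 (47.6%) held a pyrimidine run by this definition, against 21.2% of the 27025 genes with a window. On either strand of the window, CCGGAAG, a form of the ETS family site, stood in 20 of the 42 (47.6%) against 9.93% of all genes, and AAGATGG, a form of the YY1 site, in 8 (19%) against 7.28%. GGGCGG, the GC box, was in 24 (57.1%) against 38.2%, CACGTG, the E-box, in 4 (9.52%) against 8.09%, and TATAAA, the TATA box, in 6 (14.3%) against 15.7%. None of these letter strings contains another, and a match is a description of the window only. The 20 measured genes with a pyrimidine run had a median log2 change under CHX of -0.29, and the 20 without one also -0.29. The run was sought only within 5 bases of an annotated start, so a gene without one may still have a TOP mRNA. These medians therefore do not compare genes with and without the motif.

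The arrays met the fibroblast label: all 12 fibroblast genes looked for were kept, against 2 of 7 leukocyte, 4 of 6 epithelial and 0 of 5 endothelial genes on the array. The summed intensity of the fibroblast genes was 103562 to 122000 on the arrays with CHX and 85176 to 97727 on those without, that of the leukocyte genes 188 to 498 and 172 to 319, that of the epithelial genes 66 to 86 and 63 to 68, and that of the endothelial genes 29 to 32 in both. The fibroblast list itself went both ways with CHX, with 5 probe sets lower and 8 higher of 25 and a median log2 change of 0.01. Among them, by the probe set of highest mean, the receptor gene Pdgfra was lower at -0.61 and Fn1, for fibronectin, higher at 0.35. Whether the higher fibroblast sum has a part in the changes below was not tested. The interferon-responsive genes Ifit1, Mx2, Igtp and Irf1 passed the test as higher with IFNα in 4 of 4 cases and with IFNγ in 3 of 4. The upper quartile of intensity was 115.6 to 133.2 on the arrays with CHX and 131.9 to 142.2 on those without, and was lowest on IFNγ + CHX replicates 1 and 3 and CHX replicate 1.

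Newly transcribed RNA of many ribosomal protein genes was lower with cycloheximide, and that of none was higher past the threshold. Over the 3 settings with and without interferon, 42 of the 95 member probe sets (44.2%), in 27 of 45 genes, were lower with CHX in limma's test at an adjusted p under 0.01, and 0 were higher. Among all 27773 probe sets, 17.9% were lower and 12.7% higher. The change was small for most members: the median log2 change was -0.29 (SD 0.14 over the 3 replicate numbers), with quartiles of -0.41 and -0.18, against 0.03 over all probe sets. A fall of at least 2-fold was called for 3 members, against 5.31% of all probe sets. Of the 95 members 90 lay below 0 by any size, against 46.3% of all probe sets.

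These counts move with the scaling of the arrays. Quantile normalization gave 41 members lower, of which 40 were among the 42. Centring each array on its median put the median of all probe sets at 0.15, against 0.03 without it. It left 20 members lower, all among the 42, with a member median of -0.18. The members' median minus that of all probe sets was -0.33 with and without centring. Centring shifts all probe sets of an array by the same amount, so this difference could not change and does not test the fall. The calls over all probe sets turned with centring, to 13% lower and 16.5% higher. Among the 2778 brightest probe sets, which hold 80 of the members, 36 of these 80 were called lower, against 24.4% lower and 22.6% higher among the other probe sets there.

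**Figure D1:**
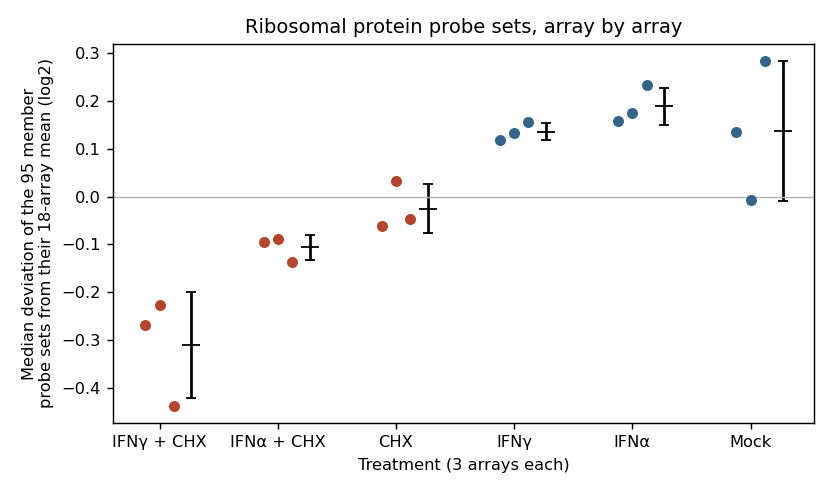
Each point is 1 array: the median, over the 95 member probe sets, of the log2 intensity minus that probe set's mean on all 18 arrays, with the mean and SD of the 3 arrays of a treatment beside it. The IFNγ + CHX arrays lie between -0.44 and -0.23 and the mock arrays between -0.01 and 0.28, and mock replicate 2 and CHX replicate 2 are the 2 arrays at which the groups with and without CHX cross.

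Array by array, the members' median deviation was -0.27, -0.23 and -0.44 with IFNγ + CHX, -0.09, -0.09 and -0.14 with IFNα + CHX, and -0.06, 0.03 and -0.05 with CHX. It was 0.12, 0.13 and 0.16 with IFNγ, 0.16, 0.18 and 0.23 with IFNα, and 0.14, -0.01 and 0.28 in mock. The arrays with CHX were thus below those without, except that CHX replicate 2 was above mock replicate 2.

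Among the large-subunit genes, 24 of 39 probe sets were lower and 0 higher, against 17.9% and 12.7% of all probe sets. Their median log2 change was -0.35. Rpl12, which sits at the base of the ribosomal stalk where elongation factors bind, had the largest fall. Its log2 intensity was 10.69, 10.96 and 10.03 with IFNγ + CHX, 11.36, 10.74 and 10.12 with IFNα + CHX, and 11.20, 11.15 and 10.53 with CHX. It was 12.41, 12.33 and 12.16 with IFNγ, 12.18, 12.54 and 12.30 with IFNα, and 12.52, 12.48 and 12.33 in mock. Every array with CHX lay below every array without it. The log2 change was -1.61 (SE 0.16), or 3.05-fold lower, with a limma adjusted p of 2.39e-06.

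Rpl14, another protein of the large subunit, ranged from 6.62 over a median of 7.13 to 7.45 in log2 intensity on the 9 arrays with CHX, and from 7.52 over 7.90 to 8.28 on the 9 without. The groups did not overlap, but CHX replicate 2 and mock replicate 2 nearly met. Rpl14 changed by -0.83 on the log2 scale (SE 0.13, limma adjusted p = 1e-04). By the probe set of highest mean, Rpl14, Rps27 and Rpl39 had the lowest levels of the measured genes. Rpl13a, which in human monocytes treated with IFNγ is released from the ribosome and binds mRNAs of the inflammatory response, had 13.34, 13.74 and 13.92 (lowest, median, highest) with CHX, and 14.14, 14.33 and 14.41 without. These groups did not overlap either. All 4 of its probe sets were called lower, with log2 changes from -0.89 to -0.61.

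Smaller falls with tight arrays were found for Rpl10a, the protein of the mobile L1 stalk, and Rpl8, which lies near the peptidyl transferase centre. Rpl10a had a lowest, median and highest log2 intensity of 13.59, 13.87 and 14.06 with CHX, and 14.18, 14.26 and 14.36 without. Its log2 change was -0.42 (SE 0.06, limma adjusted p = 6.99e-05), and that of Rpl8 was -0.42 (SE 0.07, limma adjusted p = 0.00021). Rpl19 was a housekeeping gene on the study's other platform, where IFNγ was compared with mock in cells without CHX. In that comparison its log2 change here was -0.08 (SE 0.13). With CHX, Rpl19 fell. It had 12.22, 12.71 and 12.90 with CHX and 12.83, 13.05 and 13.28 without, a log2 change of -0.39 (SE 0.08, limma adjusted p = 0.000906). The CHX arrays of Rpl19 reached into the range of the others, and its call was lost with median centring, at an adjusted p of 0.0105, while Rpl10a then stood at the threshold itself (0.01 after rounding).

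Of the small-subunit genes 17 of 46 probe sets were lower and 0 higher, against 17.9% and 12.7% of all probe sets. Their median log2 change was -0.28. Rps25, which is not needed for growth in yeast but serves initiation at viral internal entry sites, had a lowest, median and highest log2 intensity of 10.94, 11.43 and 12.05 with CHX, and 11.92, 12.29 and 12.40 without. The highest CHX array, CHX replicate 1, lay above the lowest array without CHX, IFNγ replicate 3. The log2 change of Rps25 was -0.74 (SE 0.13, limma adjusted p = 0.000278).

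Rps27, a zinc-finger protein of the small subunit, had 6.63, 7.37 and 7.42 with CHX, and 7.45, 7.89 and 8.26 without, so that the groups nearly met but did not overlap. Its log2 change was -0.70 (SE 0.14, limma adjusted p = 0.0012). Rps19, which is mutated in a share of people with the inherited anaemia named after Diamond and Blackfan, had 11.87, 12.24 and 12.69 with CHX, and 12.45, 12.69 and 13.04 without, so its groups overlapped. Its log2 change was -0.48 (SE 0.12, limma adjusted p = 0.00426), and the call was lost without IFNα replicate 3, at an adjusted p of 0.0104, and without the 3 arrays of lowest upper quartile, at 0.0193. Rps4x, an X-linked gene, fell without overlap, lying between 12.91 and 13.24 with CHX and between 13.34 and 13.57 without (log2 change -0.38, SE 0.05, limma adjusted p = 1.29e-05).

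**Figure D2:**
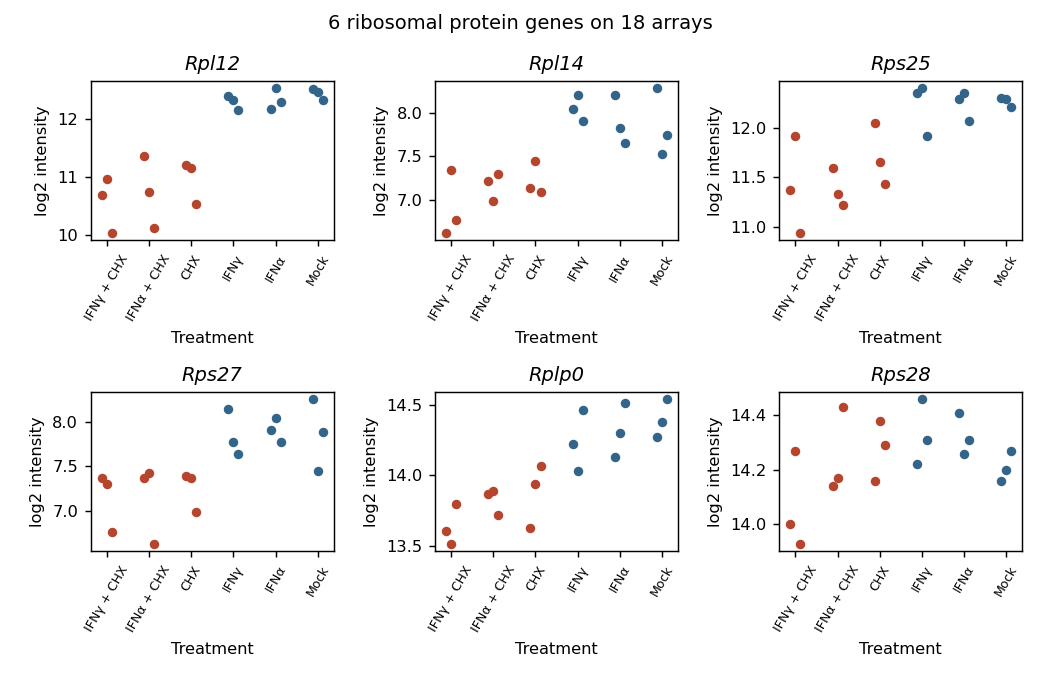
Log2 intensity (vertical axis) of 6 ribosomal protein genes on all 18 arrays, 3 per treatment, with the CHX treatments on the left in red and the treatments without CHX on the right in blue. Rpl12, Rpl14 and Rps27 show no overlap between the red and blue points, Rps25 and Rplp0 a small one, and Rps28 a full one.

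The stalk is a flexible extension of the large subunit in which Rplp0 holds copies of the acidic proteins Rplp1 and Rplp2. Rplp0 had a lowest, median and highest log2 intensity of 13.52, 13.80 and 14.07 with CHX, and 14.03, 14.30 and 14.54 without, with a log2 change of -0.53 (SE 0.08, limma adjusted p = 0.000119). Only CHX replicate 3 reached above the lowest array without CHX, IFNγ replicate 2. Rplp2, its partner, had 12.88, 13.61 and 13.92 with CHX, and 13.31, 13.70 and 14.06 without, and was not called (log2 change -0.20, SE 0.12, limma adjusted p = 0.193).

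None of the 8 probe sets of the paralogs was called in the comparison with CHX, against 17.9% of all probe sets lower and 12.7% higher. Their median log2 change was -0.25. The list of 8 is small, and whether it differs from the other members was not tested. Rpl22l1, the paralog of Rpl22, had 11.97, 12.29 and 12.52 with CHX, and 12.13, 12.22 and 12.48 without. Its log2 change was -0.02 (SE 0.08), while the probe set of highest mean for Rpl22 itself changed by -0.36 (SE 0.07, limma adjusted p = 0.00103, and 0.024 with median centring). Rpl39l, a paralog of Rpl39 that is abundant in testis, had a log2 change of 0.14 (SE 0.08), and Rpl39 one of -0.04 (SE 0.05). Rps27l, a p53-induced paralog of Rps27, had a log2 change of -0.28 (SE 0.14), and Rpl7l1 one of -0.19 (SE 0.06). The differences between a paralog and its parent gene were not tested.

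The member genes Rpl27a, Rps6 and Rpl39l lay above 0 by their probe set of highest mean, and none was called. Rpl27a had a lowest, median and highest log2 intensity of 9.77, 10.23 and 10.78 with CHX, and 8.85, 10.12 and 10.43 without. Rps6, the substrate of the S6 kinases, had 9.73, 10.13 and 10.56 with CHX, and 9.68, 9.97 and 10.34 without. Both pairs of ranges overlapped widely, with log2 changes of 0.37 (SE 0.20, limma adjusted p = 0.157) and 0.22 (SE 0.12, limma adjusted p = 0.166). Rps28 and Rps29, small proteins of the small subunit, were near 0 at -0.09 (SE 0.06) and -0.10 (SE 0.08), as was Rpl37 at -0.07 (SE 0.11). Under median centring Rps28, Rps29, Rpl37, Rpl27, Rpl39 and Rpl22l1 took the opposite sign, none of them called.

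**Figure D3:**
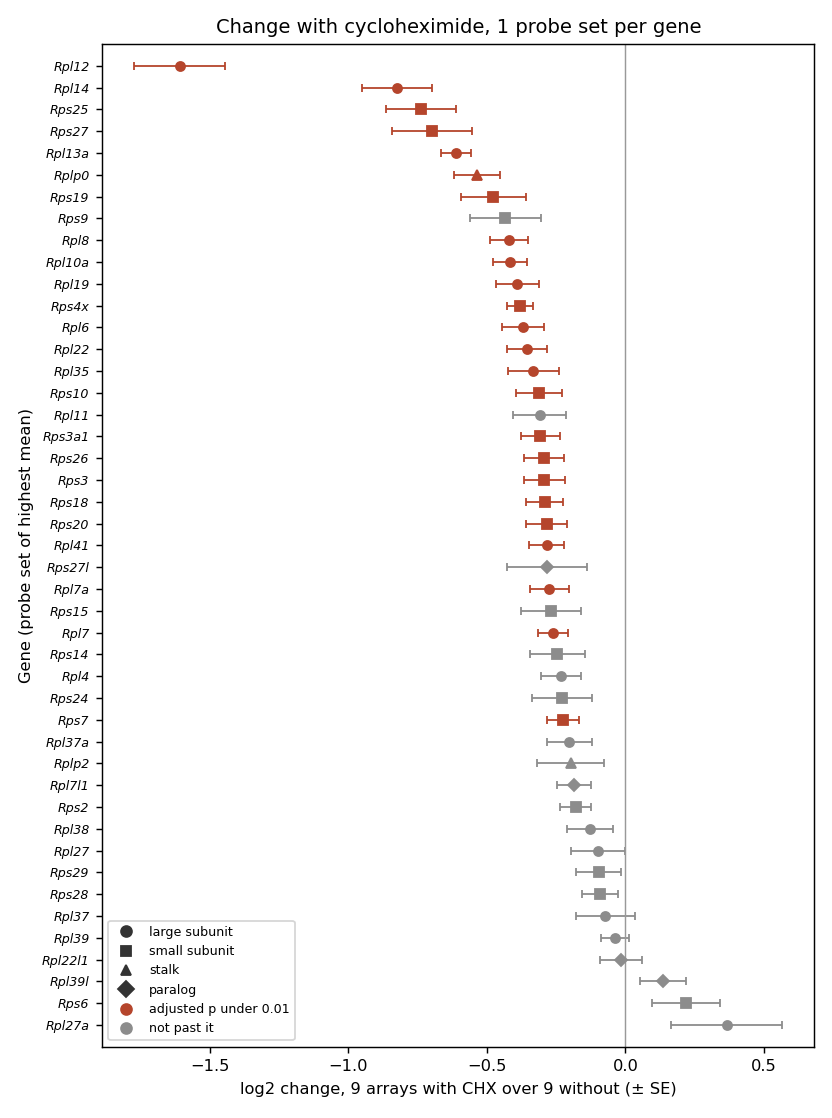
Log2 change (horizontal axis, bars are SE) of the 45 measured genes, each by its probe set of highest mean, on the 9 arrays with CHX over the 9 without, with the symbol giving the class and red the calls at a limma adjusted p under 0.01. The 24 genes called are all on the left of 0, and the 3 genes on the right are grey.

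At the level of genes, 24 of 45 were lower by their probe set of highest mean and 0 were higher, with a median log2 change of -0.28. The calls of Rpl35 and Rps10 stood close to the threshold, at limma adjusted p-values of 0.00981 and 0.00804, and were lost with median centring (0.0859 and 0.0465) and when 15 and 12 of the 18 arrays were left out in turn. The ranges of the 9 arrays with CHX and the 9 without did not overlap for 16 member probe sets (16.8%) in 14 genes, all of them lower, against 7.64% of all probe sets lower and 4.13% higher. For 20 genes 2 or more probe sets were kept, and in 10 of these some probe sets were called and others not.

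Rps9, a protein that helps to set the accuracy of decoding, differed most between its probe sets. The probe set 1426958_at had a lowest, median and highest log2 intensity of 10.38, 11.05 and 11.28 with CHX, and 12.15, 12.36 and 12.50 without. This gave a log2 change of -1.37 (SE 0.11, limma adjusted p = 2.01e-07). The probe set 1433689_s_at had a log2 change of -0.43 (SE 0.13, limma adjusted p = 0.0133), which passed the threshold without IFNα replicate 1 or IFNγ replicate 2 (0.00952 and 0.00747), and 1434624_x_at one of 0.19 (SE 0.14, limma adjusted p = 0.292). The value for Rps9 is therefore uncertain.

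Rpl35, at the exit of the nascent chain, had 1 probe set at -1.01 (1454833_at, SE 0.21, limma adjusted p = 0.00134), and its 5 others lay between -0.41 and -0.31. Rps10, in the head of the small subunit, had 1436384_at at -0.80 and 5 others between -0.37 and -0.10. Rpl37a had 1416218_x_at at -0.89 and the others at -0.35 and -0.20. Of the 25 members whose names end in _at alone 14 were called, with a median log2 change of -0.39, and of the 39 ending in _x_at, in which some probes also match other transcripts, 10 were called, with a median of -0.22. Over all probe sets the shares lower were 17% and 16.9% for the same endings. Whether probes shared with other transcripts have a part in this was not tested.

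**Figure D4:**
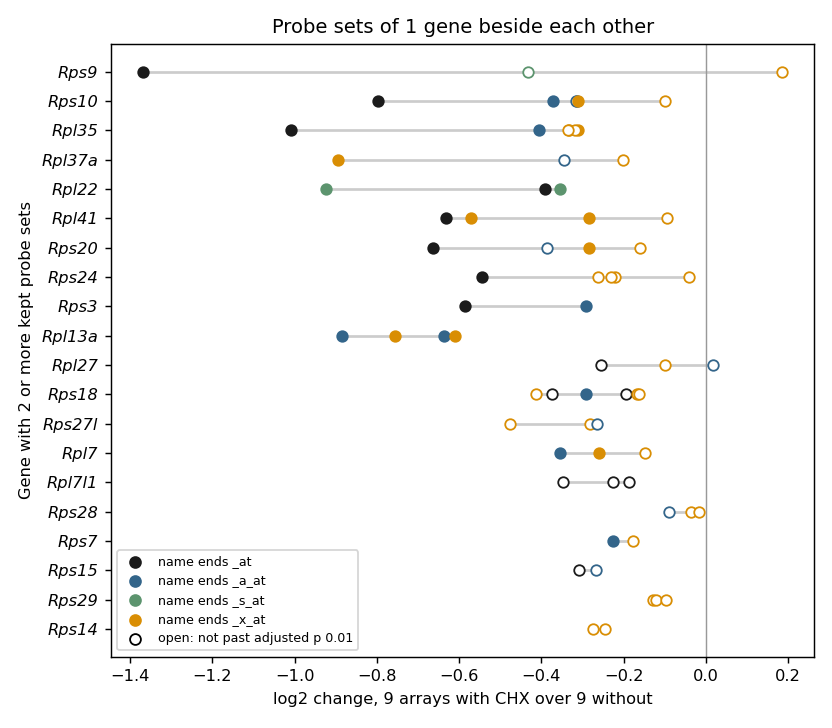
Log2 change with CHX (horizontal axis) of each kept probe set of the 20 genes with 2 or more, 1 row per gene, coloured by the ending of the probe set name and filled where the limma adjusted p was under 0.01. The rows of Rps9, Rps10, Rpl35 and Rpl37a are the widest, and all 4 points of Rpl13a are filled.

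Each interferon setting was then taken on its own. With IFNγ + CHX against IFNγ, 20 member probe sets (21.1%) in 15 genes were lower and 0 higher in limma's test, against 9.14% of all probe sets lower and 4.9% higher, and the median log2 change was -0.46 (SD 0.14). With IFNα + CHX against IFNα, 8 (8.42%) were lower and 0 higher, against 6.31% and 5.54%, with a median of -0.31 (SD 0.08). With CHX against mock, 6 (6.32%) were lower and 0 higher, against 7.02% and 3.92%, with a median of -0.14 (SD 0.23). The share called against mock and with IFNα was thus near that of all probe sets. The medians differed between the settings by the ending of the probe set name. For the 25 members ending in _at alone they were -0.49 with IFNγ, -0.49 with IFNα and -0.47 against mock. In the same order they were -0.37, -0.26 and -0.04 for the 39 ending in _x_at, and -0.49, -0.29 and -0.16 for the 28 ending in _a_at. Why the endings differ was not tested. With median centring the counts lower were 7, 7 and 3 with IFNγ, with IFNα and against mock. The shares of all probe sets called under centring were not computed for the single settings. The higher share with IFNγ is therefore given for the fit without centring only. The centred medians were -0.26, -0.28 and -0.03. Those of all probe sets became 0.23, 0.02 and 0.15, from 0.03, -0.01 and 0.04 without centring.

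The single comparisons rest on few arrays. The count with IFNγ became 9 to 13 when IFNγ replicate 1, 2 or 3 or IFNγ + CHX replicate 1 or 3 was left out, 2 when the fit held no arrays but the 6 compared, and 4 without the 3 arrays of lowest upper quartile, an alternative added after seeing the data. Against mock it became 3 without mock replicate 1, mock replicate 3 or CHX replicate 3, and the median became -0.05 without mock replicate 3 and -0.22 without mock replicate 2.

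The 6 members called against mock belonged to Rpl12, Rps9, Rpl22 and Rpl13a. Of the probe sets of Rps9 and of Rpl22 only a single one each was called. Those of Rpl13a were called except 1417608_a_at (limma adjusted p = 0.102). For Rpl12 the log2 change was -1.74 with IFNγ, -1.60 with IFNα and -1.48 against mock (SE 0.28 for the last, limma adjusted p = 0.0021). The call against mock was lost without CHX replicate 3, at an adjusted p of 0.0119. For Rpl13a the call of the probe set of highest mean against mock was lost with median centring (0.0451), on the 6 arrays compared alone (0.0495) and without mock replicate 1 (0.0123) or 3 (0.0132). For Rpl22 probe set 1448398_s_at the log2 change was -1.02 with IFNγ, -0.97 with IFNα and -0.78 against mock. The adjusted p-values in limma were 5.77e-07, 9.68e-07 and 8.47e-06. The same 1448398_s_at read 8.85, 8.80 and 8.91 with IFNγ + CHX, 9.06, 8.93 and 8.85 with IFNα + CHX and 9.12, 9.09 and 9.04 with CHX, and 9.79 to 9.94 on the arrays without CHX. No array with CHX reached the range of those without. The other probe sets of Rpl22 changed little against mock and were not called. The one of highest mean, 1453118_s_at, was at -0.14 (limma adjusted p = 0.455) and 1416603_at at -0.15 (limma adjusted p = 0.473). The size of the change of Rpl22 against mock is therefore uncertain.

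Across members, 72 of 95 (75.8%) were lower in each of the 3 settings, against 33.5% of all probe sets, and 6 (6.32%) were called lower in all 3, against 4.23%. The changes with IFNα and against mock had a Pearson correlation of 0.915 over the 95 members (0.879 over all probe sets), those with IFNγ and against mock 0.764 (0.801), and those with IFNγ and with IFNα 0.836 (0.835). The 3 comparisons share no array, but the members include several probe sets of a gene.

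Interferon itself changed no member past the threshold. With IFNα against mock 0 members were called, against 0.569% of all probe sets, and 0 had an unadjusted p under 0.05 in limma. The median log2 change was 0.06 (SD 0.10). With IFNγ against mock 0 were called, against 2.12%, and 0 passed the unadjusted threshold, with a median of 0.02 (SD 0.11). The member with the smallest p was Rps20 probe set 1421935_at, with a log2 change of -0.49 (SE 0.28, limma adjusted p = 0.659), while its probe set 1456373_x_at was at 0.19 (SE 0.12). Both comparisons use the same mock arrays, and the medians were -0.004 and -0.05 without mock replicate 2 and 0.15 and 0.09 without mock replicate 3.

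In the presence of CHX no member passed the threshold either. With IFNγ + CHX against CHX 0 members were called, against 4.34% of all probe sets. An unadjusted p under 0.05 in limma was found for 27 of 95 (28.4%), against 18.1% of all probe sets. The median log2 change was -0.27 (SD 0.10), against -0.04 over all probe sets. The smallest adjusted p was 0.0599, for Rpl22 probe set 1416603_at, which read 9.89, 9.63 and 9.66 with IFNγ + CHX and 10.15, 10.34 and 10.09 with CHX (log2 change -0.47, SE 0.14). These 3 arrays lay below the other 3. With IFNα + CHX against CHX 0 were called, against 0.961%, and 0 passed the unadjusted threshold. The median was -0.08 (SD 0.06), against -0.04 over all probe sets.

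Whether interferon altered the response to CHX was tested by the interaction. For IFNγ 0 members were called, against 0.241% of all probe sets, while 14 (14.7%) had an unadjusted p under 0.05 in limma, against 7.78%. The median interaction was -0.29 on the log2 scale (SD 0.14), against -0.02 over all probe sets. It was also -0.29 for the mitochondrial ribosomal proteins. The smallest adjusted p of a member in limma was 0.303, for Rps24 probe set 1456628_x_at. For IFNα 0 were called, against 0.187%, and 0 passed the unadjusted threshold. The median was -0.15 (SD 0.16), against -0.02 over all probe sets. The difference in the fall between the settings was therefore not shown at this number of arrays, and IFNγ + CHX replicates 1 and 3 are also 2 of the 3 arrays of lowest upper quartile, whose part in it was not tested.

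Further lists of the translation machinery also held calls with CHX, where 17.9% of all probe sets were lower and 12.7% higher. Fau and Rpsa, ribosomal proteins with other names, were both lower with CHX, at -0.47 (SE 0.10, limma adjusted p = 0.00169) and -0.34 (SE 0.09, limma adjusted p = 0.00573), and the call of Rpsa was lost with median centring (0.0536). Among the probe sets of other TOP mRNAs, which encode mainly translation factors, 23 of 53 were lower and 3 higher, with a median log2 change of -0.31. Eif3l, a subunit of initiation factor 3, fell by 0.78 and Nap1l1, a histone chaperone, fell by 0.77 on the log2 scale. Eef1d, an exchange subunit of elongation factor 1, fell by 0.64, and Vim, vimentin, was higher at 0.46 (SE 0.08, limma adjusted p = 0.00042).

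Genes that build the ribosome held calls as well, and differences between the lists were not tested. Of 109 probe sets for ribosome biogenesis and RNA polymerase I, 66 were lower and 2 higher, with a median log2 change of -0.63. Polr1b, the second largest subunit of RNA polymerase I, averaged 5.86 in log2 intensity with CHX and 8.05 without, a change of -2.19 (SE 0.17, limma adjusted p = 1.35e-07). Ubtf, which opens the ribosomal DNA for that polymerase, averaged 6.22 and 7.84, and Nop16, a nucleolar assembly factor, 6.78 and 8.45. Both were lower in limma's test, with changes of -1.62 and -1.67.

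Of the 16 probe sets of snoRNA host RNAs, whose introns carry the small RNAs that guide modification of ribosomal RNA, 11 were lower and 0 higher, with a median of -0.62. Snhg3 averaged 8.66 with CHX and 10.77 without (change -2.11, SE 0.20, limma adjusted p = 1.1e-06), and Snhg4 averaged 11.21 and 12.64 (change -1.42, SE 0.07, limma adjusted p = 1.13e-09). Of the 147 probe sets of mitochondrial ribosomal proteins, which serve the separate ribosome of that organelle, 57 were lower and 4 higher, with a median of -0.29. Mrpl43 averaged 7.58 with CHX and 9.04 without, and Mrpl12 averaged 9.14 and 10.31. With median centring the counts lower were 14 of 53, 56 of 109, 7 of 16 and 43 of 147 in the same order of lists, and the medians kept their sign.

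**Figure D5:**
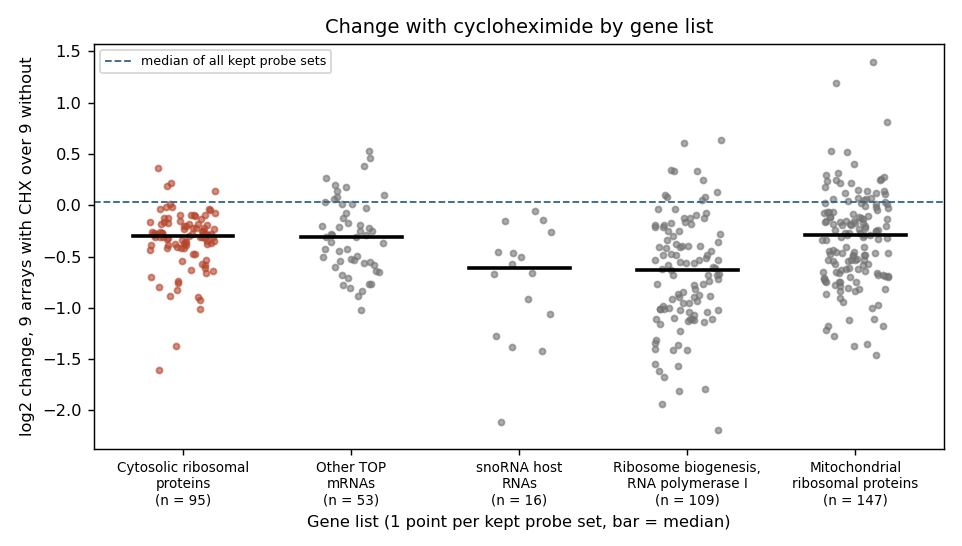
Log2 change with CHX (vertical axis) of each kept probe set in 5 gene lists, with a bar at the median and a dashed line at the median of all kept probe sets, 0.03. The medians are -0.29 for the cytosolic ribosomal proteins, -0.31 for other TOP mRNAs, -0.62 for snoRNA hosts, -0.63 for ribosome biogenesis and -0.29 for mitochondrial ribosomal proteins.

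The 8 member probe sets that the filter left out were single probe sets of Rpl27a, Rps4x, Rps24, Rps3, Rps6, Rpl3l, Rps4l and Rps16. Their highest intensity on any array was at most 7.8, against at least 131.2 for the members kept. Rpl3l, a form found in striated muscle, Rps4l and Rps16 had no other probe set with a single symbol. The 107 kept probe sets that name a ribosomal protein gene beside another symbol had 46 lower and 4 higher with CHX over the 3 settings, against 17.9% and 12.7% of all probe sets. Their median log2 change was -0.23, but their signal cannot be given to 1 gene.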

How the data were processed

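RNA labelled with 4sU was purified from 18 NIH-3T3 cultures and hybridised to Affymetrix MG430 2.0 arrays. The authors normalised the arrays with gc-RMA and deposited linear intensity values, and the submitters' processing notes name Affymetrix Expression Console, its version not given in the sources used here. gc-RMA corrects background by probe base content and scales the arrays to a like distribution, so changes are relative. Probe set levels were ranked to filter, to choose 1 probe set per gene and to set members beside bright probe sets, although the level of a probe set also depends on its probes. Of 45037 probe sets without the 64 controls, 34945 have 1 gene symbol, 932 several and 9160 none in GEO's platform annotation.

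The deposited values were put on the log2 scale with no added constant. The study filtered on presence calls. These were not used here, and about the same number was kept by highest value (27773 with ties, at least 8.5). limma 3.58.1 in R 4.3.3 (lmFit, eBayes, Benjamini-Hochberg over all kept probe sets) was fitted to all 18 arrays, with 12 residual and 2.05 prior degrees of freedom. A call is an adjusted p under 0.01. The fit was tested on simulated data. The CHX comparison over the 3 settings is the mean of the 3 differences. Arrays carry no depth, so their number limits the precision, and no scan date or slide was used. p-values measure the spread between the 3 replicates of each treatment.

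Members and lists were chosen with earlier results of these data known. Genes were named by the probe set of highest mean: the 8 largest falls and up to 8 rises with CHX, over the 3 settings and against mock, genes called with interferon, housekeeping genes, stalk genes and paralogs, the 4 genes whose probe sets differ most, the 3 highest and lowest levels, those below the filter, and up to 4 called genes of each further list. Others named were chosen after their values were seen. Alternatives were 2 pseudocounts (1 and 16), 2 scalings, 2 filters (none, and a highest value of at least 64), an intensity trend, only the arrays compared, the replicate number as a block, probe sets ending in _at alone, 1 probe set per gene, a threshold of 0.05, and leaving out each array. Start windows come from RefSeq on GRCm38.p6. Figures were drawn with matplotlib 3.10.9 in Python 3.11.15.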

Additional observations from a re-analysis of the deposited data

How the results depend on the processing

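Signs were compared for the genes named, by their probe set of highest mean, with CHX over the 3 settings and against mock. None of their called values changed sign under an alternative that recomputed it. Under the alternatives, shares of all probe sets were computed for CHX over the 3 settings only, and not for every alternative. Counts of members called lower, with 0 higher throughout, were as follows. CHX over the 3 settings gave 42, 20 with median centring and 14 on probe sets ending in _at alone, and 32 to 46 leaving out each array. IFNγ + CHX against IFNγ gave 20, 7 with median centring, 2 on the arrays compared, 6 on _at alone, 41 at an adjusted p under 0.05, 4 without the 3 arrays of lowest upper quartile (chosen after seeing the data), and 9 to 17 leaving out each array. IFNα + CHX against IFNα gave 8, 3 on the arrays compared, 2 on _at alone, 20 at an adjusted p under 0.05, and 6 to 9 leaving out each array. CHX against mock gave 6, 3 with median centring, 3 on the arrays compared, 2 on _at alone, 12 at an adjusted p under 0.05, and 3 to 8 leaving out each array, and its median of -0.14 was -0.47 on _at alone. Counts on _at alone are out of 25 members and those on the arrays compared have fewer residual degrees of freedom; for the others the cause was not tested. The interferon comparisons and interactions stayed at 0 leaving out each array.

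With the replicate number as a block, 53, 36, 16 and 12 members were lower in the same order, 41 of the 53 among the 42, and 1 member was called with IFNγ + CHX against CHX. The calls over all probe sets rose as well. With CHX over the 3 settings the block gave 21.7% lower and 16.4% higher, against 17.9% and 12.7% without it. The main fit did not treat the numbers as pairs: same-numbered arrays deviated together with correlations of -0.401 to 0.784, 38 of 45 pairs were above 0.1, and 14 of 18 arrays correlated best with their own number. The SD beside a median change, however, is over the 3 differences between same-numbered arrays. The fit on only the arrays compared is the main fit for CHX over the 3 settings. Among the genes named, the call was lost in 44 of the recomputed values and gained in 18. Probes shared with other transcripts limit single genes, and 3 arrays per treatment limit the single comparisons.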
